A study of Mus musculus with 18 samples.

Results

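Mouse chromosome 11 carries the Nlrp1 genes in one block and the Schlafen (Slfn) genes in another. The 10 genes described here were taken by name from the 54532 genes of the count tables: Nlrp1a, Nlrp1b and Nlrp1c-ps, and Slfn1, Slfn2, Slfn4, Slfn5, Slfn8, Slfn9 and Slfn10-ps. The set was selected on the colitis fold changes: it joins genes at least 4-fold lower in both knockout-labelled colitis groups and past an adjusted p of 0.05 in each, written as lost below, with family members that were not. Since the colitis differences chose the genes, the colitis values below are a description, and the tumour libraries are the only ones in which the same genes were tested independently of that choice.

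NLRP1 proteins are cytosolic sensors that cut themselves. Degradation of the amino-terminal fragment frees the carboxy-terminal fragment, which recruits caspase-1, and active caspase-1 matures IL-1β and IL-18 and cleaves gasdermin D to open the cell membrane. Schlafen genes are a family found in mammals, many of them induced by type I interferon in immune cells, with short members such as Slfn1 and Slfn2, a middle class with Slfn3 and Slfn4, and long members with a helicase-like part such as Slfn5, Slfn8 and Slfn9.

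The study sequenced poly(A) RNA of C57BL/6 mice from 2 lines, each with wild-type (WT, +/+) and knockout (KO, -/-) animals. The product of Il1f5 blocks the IL-36 receptor, and that of Il1f9, IL-36γ, activates it. In the colitis experiment, mice drank 2.5% dextran sodium sulfate (DSS), which injures the colon lining, for 5 days and plain water for 2 days, and a 0.5 cm piece of distal colon was taken from 3 Il1f5 +/+, 3 Il1f5 -/-, 2 Il1f9 +/+ and 2 Il1f9 -/- mice. In the tumour experiment, colorectal tumours of the azoxymethane (AOM) and DSS model came from 2 mice of each of the same 4 genotypes. How the alleles were made, the age and sex of the mice, and whether WT and KO animals were littermates are not stated in the labels.

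The 18 libraries held 16621611 to 23776174 counts, and 3 counts, the most that a count of 0 allows, correspond to 0.126 to 0.184 counts-per-million (CPM) in a single library. Il1f9 had 232 and 90 counts in colitis WT libraries of its line and 9 and 1 in the KO libraries, and 1652 and 752 against 2 and 0 in tumours. Il1f5 was detected only in libraries labelled Il1f5 KO (36, 43 and 45 counts in colitis, 211 and 102 in tumours) and had 0 counts in every other library, which goes against that label, so these groups are called the libraries labelled Il1f5 KO throughout, and Il1f5 WT likewise means labelled so. If the labels of this line were exchanged, each of its differences would change sign and none of the genes written as lost would be lower in both lines. The Il1f9 line libraries, WT and KO alike, also had 0 counts of Il1f5, so 0 counts were not particular to the libraries labelled Il1f5 WT. Whether the labels were exchanged, or the reads come from a part of Il1f5 that remains in the KO, was not tested. Within groups, no library duplicated another. Tumour Il1f9 KO replicate 2 stood far above replicate 1 for most of the genes described here, and values that rest on it are given with and without it.

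The 3 Nlrp1 genes lie on the minus strand of chromosome 11 within 193.0 kb (GRCm38): Nlrp1a (ENSMUSG00000069830) at 71092236 to 71144704, Nlrp1b (ENSMUSG00000070390) at 71153102 to 71230733 and the transcribed pseudogene Nlrp1c-ps (ENSMUSG00000092528) at 71242430 to 71285232. A gap of 11666.1 kb separates them from the Schlafen block, which spans 238.868 kb. In that block Slfn5 (ENSMUSG00000054404, 82951349 to 82964840, plus strand) is followed by Slfn9 (ENSMUSG00000069793, 82978390 to 82991830, minus), Slfn8 (ENSMUSG00000035208, 83002158 to 83020810, minus) and the pseudogene Slfn10-ps (ENSMUSG00000072621, 83028130 to 83040042, minus). Slfn2 (ENSMUSG00000072620, 83065112 to 83070678), Slfn1 (ENSMUSG00000078763, 83116849 to 83122670) and Slfn4 (ENSMUSG00000000204, 83175186 to 83190216) complete it on the plus strand.

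Some members resemble each other closely, and the stretch before the gene start is shown for 2 such pairs. The 250 bases upstream of each RefSeq gene start (GRCm38.p6, minus strand) are given for Nlrp1a at chr11:71144705-71144954 and Nlrp1b at chr11:71230734-71230983, since these 2 genes moved together. Capitals mark bases that differ, or that face a gap inside the alignment, when both windows are aligned. Bases that reach past the end of the other window, such as the first ones of Nlrp1a, have no partner and are in lower case.
Nlrp1a: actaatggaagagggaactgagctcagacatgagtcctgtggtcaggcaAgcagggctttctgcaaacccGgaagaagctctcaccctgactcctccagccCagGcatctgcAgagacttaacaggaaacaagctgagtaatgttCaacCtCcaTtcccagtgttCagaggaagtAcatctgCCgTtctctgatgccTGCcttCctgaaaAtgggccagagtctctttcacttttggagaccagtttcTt
Nlrp1b: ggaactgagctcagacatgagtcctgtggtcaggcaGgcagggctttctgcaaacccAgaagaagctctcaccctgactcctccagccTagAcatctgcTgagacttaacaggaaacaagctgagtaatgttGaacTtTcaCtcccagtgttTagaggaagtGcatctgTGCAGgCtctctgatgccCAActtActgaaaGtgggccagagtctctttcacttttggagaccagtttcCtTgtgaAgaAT
Over the 300-base windows that reach 50 bases past the start, 253 of 282 aligned bases were identical (89.7%).

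Slfn8 at chr11:83020811-83021060 and Slfn9 at chr11:82991831-82992080 are shown because one was lost in both colitis groups and the other was not. Capitals mark the reverse complement of a motif (GAAA, any 2 bases, then GAAA), the core of the element that interferon-activated factors bind, which was searched on both strands.
Slfn8: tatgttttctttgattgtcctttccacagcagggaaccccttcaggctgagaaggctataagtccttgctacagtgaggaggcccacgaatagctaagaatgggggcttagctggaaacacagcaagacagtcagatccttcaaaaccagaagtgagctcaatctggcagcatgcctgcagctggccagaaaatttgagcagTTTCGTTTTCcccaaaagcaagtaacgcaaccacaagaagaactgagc
Slfn9: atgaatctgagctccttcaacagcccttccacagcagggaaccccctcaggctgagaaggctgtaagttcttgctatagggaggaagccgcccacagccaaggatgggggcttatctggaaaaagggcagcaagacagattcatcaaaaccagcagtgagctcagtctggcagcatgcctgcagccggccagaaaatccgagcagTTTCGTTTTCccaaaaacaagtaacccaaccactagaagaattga
The full windows were identical at 248 of 292 aligned bases (84.9%), and the motif stood 48 bases before the start of Slfn8 and 45 bases before that of Slfn9. It was found in 3 of the 8 genes with a window (Slfn5, Slfn8 and Slfn9) and in 3.44% of 32851 mouse windows of the same length. The STAT dimer motif TTCNNNGAA was in none of the 8, against 8.30% of all windows. A letter match describes the sequence and says nothing of binding.

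Where transcripts are alike, reads can be shared. Of all 50-base stretches of its annotated transcripts, Slfn10-ps shared 19.7% with other Schlafen members, Slfn8 14.6% and Slfn9 11.2%, while Nlrp1a shared 2.07%, Nlrp1b 1.45% and Slfn5 none. Values of Slfn8, Slfn9 and Slfn10-ps are therefore less certain than those of the Nlrp1 genes. The library kit did not mark strand. None of the genes that overlap a member had more than 19 counts in a library. How reads that lie in both genes were assigned is not given, so reads lost to an overlap cannot be judged from these counts.

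**Figure D1:**
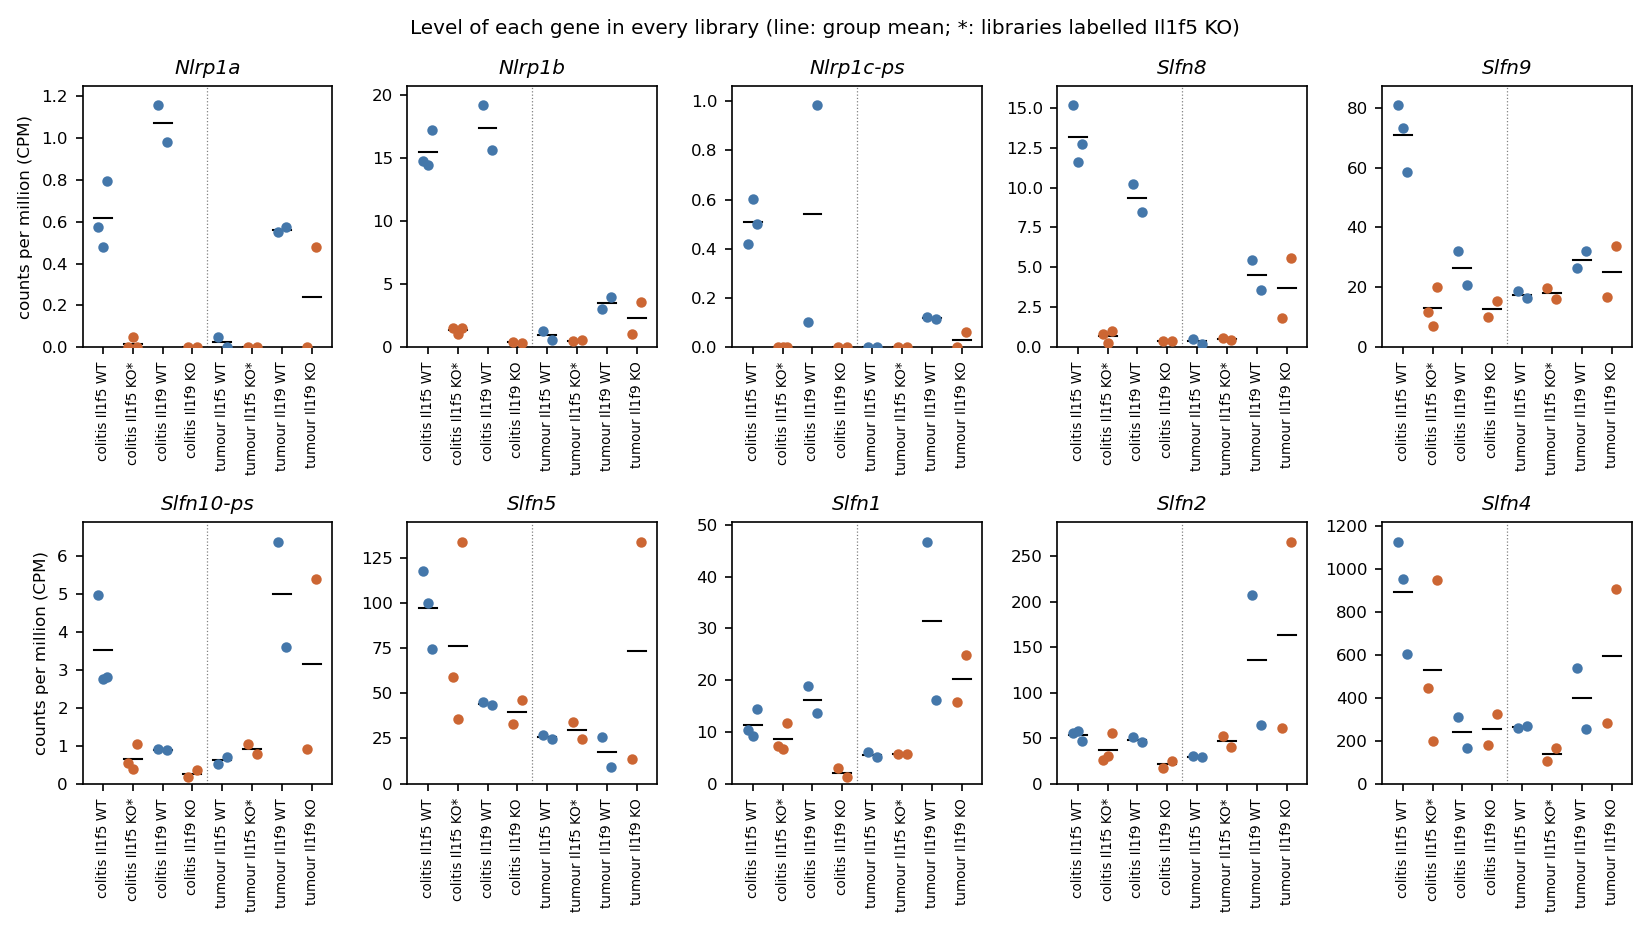
Level of each of the 10 genes in all 18 libraries, in CPM (linear axes that start at 0), with WT libraries in blue, KO-labelled libraries in orange and the group mean as a line. Nlrp1b and Slfn8 were high in all 5 colitis WT libraries and low in all 5 KO-labelled ones, and among tumours were higher in the Il1f9 line than in the Il1f5 line in both genotypes.

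In colitis, Nlrp1a, Nlrp1b, Nlrp1c-ps and Slfn8 were the 4 members lost in both KO-labelled groups, and the other 6 were not. Nlrp1b, the sensor that anthrax lethal toxin cuts in susceptible mouse strains, stood at 14.8, 14.4 and 17.2 CPM in the Il1f5 WT libraries and at 1.48, 1.07 and 1.49 CPM in the libraries labelled Il1f5 KO. In the Il1f9 line it stood at 19.2 and 15.6 CPM in WT and at 0.414 and 0.347 CPM in KO. The lowest WT library was far above the highest KO-labelled library in both lines. The log2 fold change was −3.52 ± 0.19 (SE), an 11.5-fold lower level, in the Il1f5 line and −5.50 ± 0.27, or 45.3-fold lower, in the Il1f9 line. The loss was not complete, since the KO-labelled libraries still held 28, 22 and 27 Nlrp1b counts in the Il1f5 line and 7 and 7 in the Il1f9 line.

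Nlrp1a, a second full-length sensor of the family, was scarce even in WT, with 11, 8 and 19 counts in Il1f5 WT and 23 and 20 in Il1f9 WT. It had 0, 1 and 0 counts in the libraries labelled Il1f5 KO and 0 and 0 in Il1f9 KO. Only 1 KO-labelled colitis library of 5 held a Nlrp1a count. Summed over the groups, 38 counts stood against 1 in the Il1f5 line, a depth-scaled ratio of 36.6 with a 95% counting interval of 6.19 to 1485, and 43 against 0 in the Il1f9 line, at least 13.2-fold lower with a floor of 3 counts over the group. Nlrp1c-ps, a pseudogene not known to give a working sensor, had 8, 10 and 12 counts in Il1f5 WT and none in the libraries labelled Il1f5 KO, at least 9.64-fold lower. In Il1f9 WT it had 2 and 20 counts and in KO none, at least 6.76-fold lower, and here 1 WT library carried nearly all of the signal. All intervals and floors cover counting error only.

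Slfn8, a long member, was the only Schlafen gene lost in both lines. It stood at 15.2, 11.6 and 12.8 CPM in Il1f5 WT against 0.795, 0.244 and 0.995 CPM in the libraries labelled Il1f5 KO, and at 10.2 and 8.46 CPM in Il1f9 WT against 0.355 and 0.397 CPM in KO. The highest KO-labelled library lay far below the lowest WT library in both lines. Its log2 fold changes were −4.29 ± 0.33 (19.6-fold lower) and −4.61 ± 0.44 (24.4-fold lower).

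Slfn9 and Slfn10-ps, which flank Slfn8, came closest to the loss without meeting it in both lines. Slfn9, another long member, stood at 80.8, 73.4 and 58.4 CPM in Il1f5 WT and 11.6, 7.12 and 20.1 CPM in the libraries labelled Il1f5 KO, with a log2 fold change of −2.46 ± 0.38. In the Il1f9 line it stood at 32.1 and 20.8 CPM in WT and 9.93 and 15.6 CPM in KO, and the log2 fold change was −1.05 ± 0.46. Both WT groups lay above their KO-labelled groups, but by a narrow margin in the Il1f9 line. The pseudogene Slfn10-ps followed the same course, at −2.42 ± 0.39 with 4.98, 2.77 and 2.80 CPM in Il1f5 WT against 0.530, 0.390 and 1.05 CPM, and at −1.72 ± 0.60 with 0.906 and 0.885 CPM in Il1f9 WT against 0.177 and 0.347 CPM. By the smaller of its 2 changes, the lost gene nearest to the boundary of −2 was Nlrp1b, well past it at −3.52, and the nearest gene outside was Slfn10-ps at −1.72.

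Slfn1 and Slfn2, the short members, which are linked to T cell growth control and quiescence, were lower in Il1f9 KO colitis and overlapped with WT in the Il1f5 line. Slfn1 stood at 18.8 and 13.6 CPM in Il1f9 WT and at 2.96 and 1.24 CPM in KO (log2 fold change −2.97 ± 0.41). In the Il1f5 line it stood at 10.4, 9.21 and 14.4 CPM in WT and 7.32, 6.73 and 11.7 CPM in the libraries labelled KO (−0.41 ± 0.30). The Il1f5 line groups thus overlapped while the Il1f9 line groups lay well apart. Slfn2 stood at 50.8 and 45.8 CPM against 17.6 and 24.9 CPM in the Il1f9 line (−1.18 ± 0.34), and at 55.8, 58.2 and 46.6 CPM against 26.1, 30.2 and 55.4 CPM in the Il1f5 line (−0.52 ± 0.27), where replicate 3 labelled KO stood among the WT libraries. The Il1f9 line call of Slfn2 (adjusted p = 0.0417) was fragile: it was lost with any 1 of the 4 Il1f9 line libraries left out (0.0806 to 0.208), without any 1 of the Il1f5 WT libraries (0.0543 to 0.0611), without the low-count filter (0.124) and with the replicate block (0.0514). Without replicate 3 labelled KO, Slfn2 was called lower in the Il1f5 line too (−0.90, 0.00258).

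Slfn5 and Slfn4 overlapped between WT and KO-labelled libraries in both lines. Slfn5, a long member that acts in the nucleus, stood at 118, 100.2 and 74.3 CPM in Il1f5 WT against 59.0, 36.0 and 134 CPM (−0.35 ± 0.46), and at 44.9 and 43.3 CPM in Il1f9 WT against 33.2 and 46.4 CPM (−0.15 ± 0.58). Slfn4, a member expressed in myeloid cells, stood at 1128, 954 and 606 CPM against 445, 199 and 952 CPM in the Il1f5 line (−0.75 ± 0.60). In the Il1f9 line it stood at 311 and 168 CPM against 179 and 326 CPM (0.08 ± 0.74). Replicate 3 of the libraries labelled Il1f5 KO was the highest of its group for both genes, and without it Slfn5 was called lower in that line (−1.01, adjusted p = 0.0306). Per length, Slfn4 was the most abundant of the 10 genes in all 8 groups, with 230 ± 68.4 FPKM (SD, n = 3) in Il1f5 WT colitis, where Slfn8 had 3.28 ± 0.452 and Nlrp1b 2.50 ± 0.244 FPKM.

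**Figure D2:**
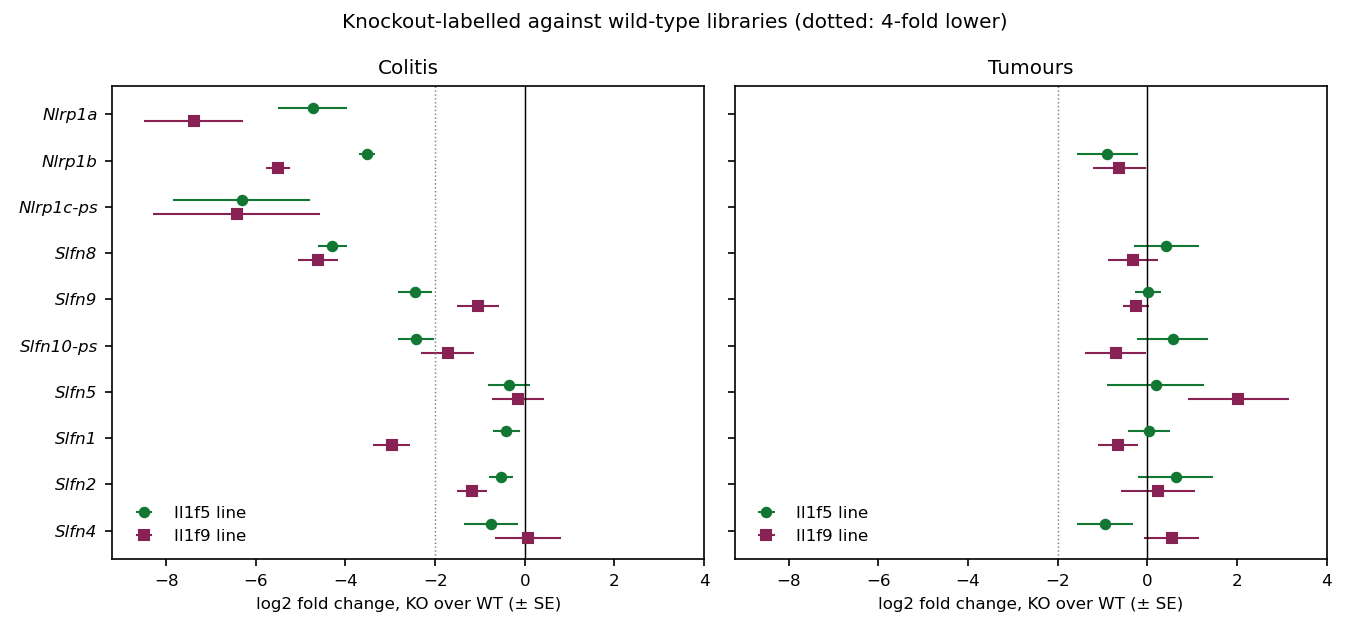
Log2 fold change of KO-labelled over WT libraries with its SE, in colitis (left) and tumours (right), for the Il1f5 line (circles) and the Il1f9 line (squares); the dotted line is 4-fold lower. In colitis the 3 Nlrp1 genes and Slfn8 lie left of the dotted line in both lines, and in tumours, where Nlrp1a and Nlrp1c-ps had too few counts to be tested, no gene does.

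By edgeR's quasi-likelihood test with Benjamini-Hochberg adjustment over 18299 genes, 6 of the 10 members were called in the Il1f5 line, all of them lower (Nlrp1a, Nlrp1b, Nlrp1c-ps, Slfn8, Slfn9 and Slfn10-ps), where 24.7% of all genes were called in either direction. Likewise 6 were called in the Il1f9 line, all lower (the same 4 lost genes with Slfn1 and Slfn2), where 19.6% of all genes were. Called and at least 4-fold lower in both lines were 4 of 10, against 0.0984% of all genes. These counts follow from how the genes were chosen, and nothing is read from them. The call of Nlrp1c-ps rested on few counts. It was lost in the Il1f9 line without Il1f9 WT replicate 2 (adjusted p = 0.277), Il1f9 KO replicate 1 (0.137) or 2 (0.156), or Il1f5 WT replicate 1 (0.0719) or 3 (0.0701), and in the Il1f5 line without replicate 1 (0.0555) or 2 (0.0537) labelled KO or WT replicate 1 (0.0554).

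In all, 18 genes of the genome were lost in both colitis groups by the same definition, of which 14 were not members and 7 lay on chromosome 11. Besides the members, chromosome 11 held Tgtp2, an interferon-inducible GTPase, the antisense transcript Tnfsf13os and the lincRNA 1190001M18Rik, which were named after their values were seen. 1190001M18Rik lies inside the Schlafen block between Slfn5 and Slfn9, at 82974316 to 82975585, with log2 fold changes of −3.83 and −5.45. Among the rest were 3 guanylate-binding protein genes that interferon induces, Gbp4 (−2.88 and −2.38), Gbp6 (−2.09 and −2.04) and Gbp11, a polymorphic pseudogene (−2.84 and −2.39).

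No protein-coding neighbour of either block was lost in both lines, but only 0.0984% of all genes were, so nothing is read from this. Of 48 genes of any type within 1 Mb of the Schlafen members, 4 were called lower in both lines. Of these, 1 was lost in both, the lincRNA 1190001M18Rik inside the block. Within 1 Mb of the Nlrp1 genes, 43 other protein-coding genes were tested and 1 was called lower in both lines, against 1.60% of all genes: Scimp, an adaptor of antigen-presenting cells 279.65 kb from the nearest member (−1.63 ± 0.32 and −1.42 ± 0.40). None of the 43 was lost in both, and their median log2 fold changes were 0.02 and 0.04. Within 1 Mb of the Schlafen genes, 39 were tested and 3 were called lower in both, the DNA ligase Lig3 (−0.39 and −0.51), the matrix protease Mmp28 (−0.58 and −1.63) and Heatr6 (−0.38 and −0.53). None was lost in both, but the median stood at −0.50 in the Il1f9 line and −0.05 in the Il1f5 line, against −0.01 over all genes in each. Between the blocks and beyond 1 Mb of either, 3 of 139 protein-coding genes were called lower in both lines and none was lost.

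**Figure D3:**
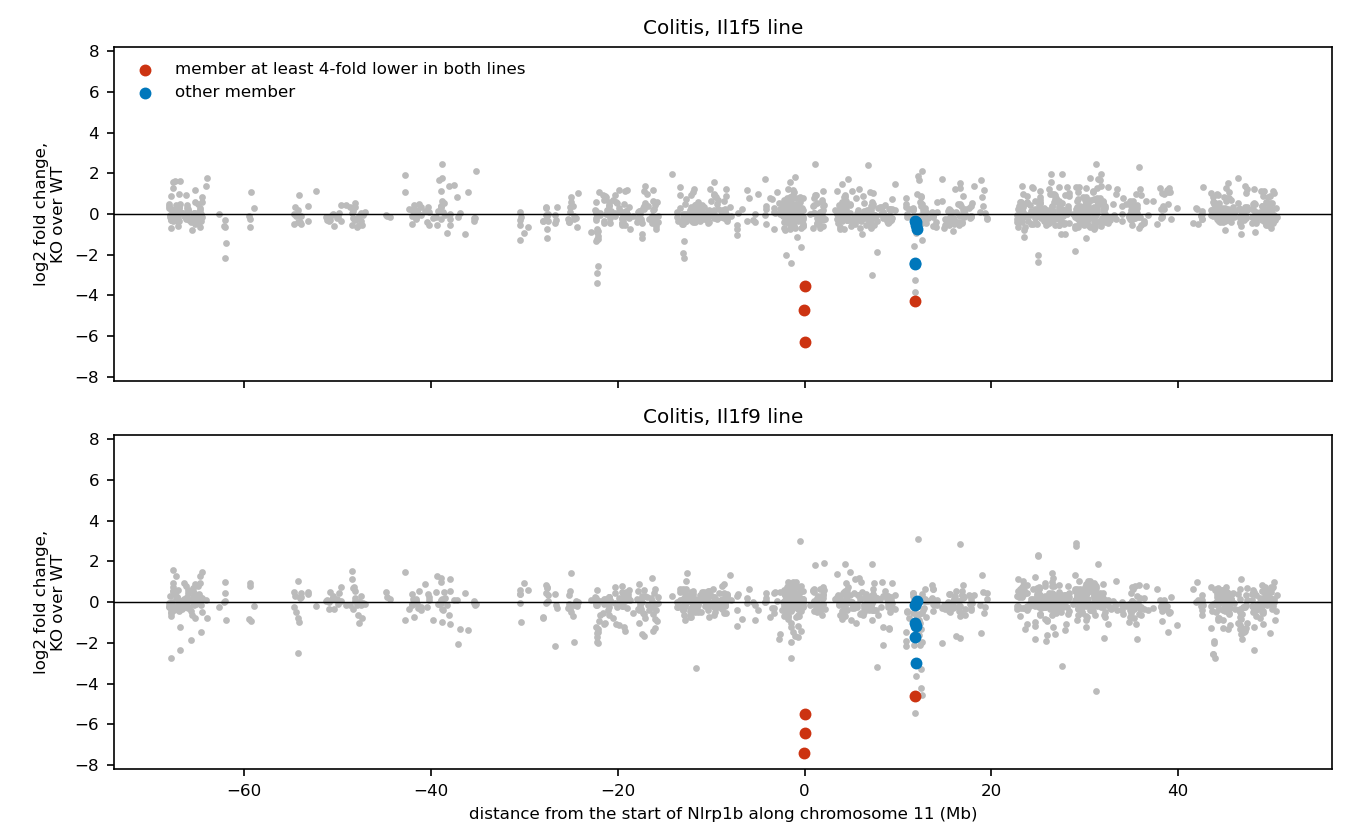
Log2 fold change of KO-labelled over WT colitis libraries along chromosome 11, against the distance in Mb from the start of Nlrp1b, for the Il1f5 line (top) and the Il1f9 line (bottom). Red points are the 4 members at least 4-fold lower in both lines, which fall in 2 places, blue points are the other 6 members and grey points are all other genes tested on the chromosome.

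Myeloid and general leukocyte markers were lower in Il1f9 KO colitis, lymphocyte markers were not called, and in the Il1f5 line the summed levels overlapped between the groups. Of the 18299 genes tested, 1827 were called lower and 1754 higher in the Il1f9 line, and 2015 lower and 2501 higher in the Il1f5 line. In the Il1f9 line all 8 macrophage and monocyte markers were called lower in KO, with a summed level of 191 to 232 CPM against 840 to 1038 CPM in WT. So were 5 of 6 neutrophil markers (197 to 256 against 648 to 1227 CPM) and all 4 markers of leukocytes in general (129 to 177 against 299 to 377 CPM), while 1 of 3 dendritic cell markers was. Of 6 T cell markers none was called in either line, with sums of 29.1 to 29.8 CPM in Il1f9 KO and 28.6 to 41.9 CPM in WT. None of 4 B cell markers was called either, and their median log2 fold change in the Il1f9 line was 0.64. In the Il1f5 line 1 of the 8 macrophage markers was called lower, and the sums overlapped, at 289 to 413 CPM in the libraries labelled KO and 356 to 429 CPM in WT. Neutrophil sums overlapped too (277 to 643 against 188 to 408 CPM), as did the general leukocyte sums (159 to 224 against 173 to 198 CPM). The median log2 fold change in the Il1f5 line was 1.33 for neutrophil markers, none of them called, 0.61 for T cell and 0.42 for B cell markers. It was 0.02 for macrophage and 0.06 for general leukocyte markers. No marker of these lists was at 0 in any group. Their part in the loss of Nlrp1b and Slfn8 was not tested, and in bulk tissue fewer cells of a type and less RNA per cell cannot be told apart. Of the tissue's own cells, 3 of 6 colon epithelium markers were called higher in Il1f9 KO and 1 lower in the libraries labelled Il1f5 KO, and all 3 smooth muscle markers were called higher in both. All 3 fibroblast markers were higher in the libraries labelled Il1f5 KO and lower in Il1f9 KO.

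The listed partners of NLRP1 are 4 genes whose products hold it inactive or degrade its fragment. In colitis 1 was called in the Il1f5 line, lower, where 24.7% of all genes were called in either direction. In Il1f9 KO 3 were called lower and 1 higher, where 19.6% of all genes were called. None was lost in both lines, and only 0.0984% of all genes were. Thioredoxin Txn1 was called lower in the Il1f5 line (−0.60 ± 0.12, adjusted p = 0.00586) and higher in Il1f9 KO (0.79 ± 0.14, 0.00387). The dipeptidyl peptidases Dpp9 (−0.58 ± 0.11, 0.00395) and Dpp8 (−0.37 ± 0.10, 0.0212) and the ubiquitin ligase Ubr2 (−0.39 ± 0.12, 0.0434) were lower in Il1f9 KO. The list's median was −0.09 in the Il1f5 line and −0.38 in the Il1f9 line.

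Of 11 other inflammasome sensors 1 was called in the Il1f5 line and 6 in the Il1f9 line, all lower, where 24.7% and 19.6% of all genes were called in either direction. In the Il1f5 line it was Nlrp6, a sensor of the gut epithelium, (−0.50 ± 0.12, adjusted p = 0.0145). In the Il1f9 line none was higher, and the 6 lower ones included Mefv, which encodes pyrin (−2.89 ± 0.32, 0.000273), and Naip6 (−0.75 ± 0.11, 0.00144) and Nlrc4 (−0.59 ± 0.11, 0.00404) of the flagellin-sensing complex. Medians were −0.19 and −0.59. Of 8 adaptor and effector genes, Il18, the cytokine matured by caspase-1 (−1.09 ± 0.16, 0.00194), and the adaptor Pycard (−0.43 ± 0.12, 0.0243) fell in the Il1f5 line. Il1b (−3.11 ± 0.75, 0.0308) and the membrane rupture protein Ninj1 (−0.55 ± 0.14, 0.0191) fell in the Il1f9 line.

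Since many Schlafen genes respond to type I interferon, the interferon lists were read beside them. By edgeR's test, 24.7% of all genes were called in either direction in the Il1f5 line and 19.6% in the Il1f9 line. None of 19 interferon-stimulated genes was called in the Il1f5 line by that test, and their median was −0.33. Their summed level was 1119, 877 and 2931 CPM in the libraries labelled Il1f5 KO against 2571, 2270 and 1705 CPM in WT. Replicates 1 and 2 labelled KO thus lay below every WT library, and replicate 3 lay above every one. In Il1f9 KO 1 was called, and it was higher: Xaf1, a cell death regulator (1.84 ± 0.47, adjusted p = 0.0346), with a list median of 0.50. Of 8 receptor and signalling genes none was called in the Il1f5 line, and 4 fell in Il1f9 KO, with the receptor chains Ifnar2 (−1.12 ± 0.15, 0.000775) and Ifnar1 (−0.64 ± 0.10, 0.00147) and the kinase Tyk2 (−0.59 ± 0.10, 0.00261) having the smallest p. Of the other Schlafen genes Slfn3, which lies in the same class as Slfn4, was the only one with enough counts. It had 30, 20 and 24 counts in Il1f5 WT against 14, 28 and 25 (−0.11 ± 0.37), and 32 and 41 in Il1f9 WT against 5 and 16 (−1.69 ± 0.48, 0.0294). Slfn14 and Slfnl1 had at most 3 counts in any library.

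The tumour libraries, which played no part in choosing the genes, showed no called loss of Nlrp1b or Slfn8 by genotype. Hardly any gene was called there, 0.0280% of all genes in the Il1f5 line and 0.0168% in the Il1f9 line, so a missing call says little. In the Il1f5 line, WT tumours held only 27 and 11 Nlrp1b counts and 11 and 4 Slfn8 counts. That is about the level of the colitis libraries labelled Il1f5 KO, so a fall of the colitis size could hardly be seen in this line. Nlrp1b stood at 1.30 and 0.551 CPM in Il1f5 WT tumours against 0.475 and 0.525 CPM in those labelled KO, and at 3.00 and 4.01 CPM in Il1f9 WT against 1.02 and 3.59 CPM in KO. It was low in every tumour compared with WT colitis, and the genotypes lay close together or overlapped. Its log2 fold change was −0.89 (approximate 95% interval −2.23 to 0.44) in the Il1f5 line and −0.63 (−1.79 to 0.53) in the Il1f9 line. These intervals take the SE as exactly known, so they are somewhat too narrow. Neither interval reaches the colitis values of −3.52 and −5.50, but those values chose the gene, so nothing is concluded from the comparison. In the Il1f5 line the low WT level limits it further. In the Il1f9 line the tumour value went to −1.76 without KO replicate 2. Slfn8 stood at 0.529 and 0.200 CPM in Il1f5 WT against 0.570 and 0.420 CPM, and at 5.46 and 3.61 CPM in Il1f9 WT against 1.81 and 5.57 CPM. It overlapped in both lines, with log2 fold changes of 0.42 (−0.995 to 1.84) and −0.33 (−1.43 to 0.77). The colitis values, which chose this gene too, were −4.29 and −4.61. Whether the KO effect differs between tumours and colitis was not tested.

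By edgeR's quasi-likelihood test none of the 8 members tested was called between KO-labelled and WT tumours in either line, where 0.0280% of 17859 genes were called in the Il1f5 line and 0.0168% in the Il1f9 line. None had an unadjusted p under 0.05, and the DESeq2 Wald test called none. By edgeR's test even Il1f5, with 0 counts in WT and 211 and 102 in those labelled KO, was not called in its line (adjusted p = 0.0529). Il1f9 was called in its own line (adjusted p = 0.0136). Nlrp1a and Nlrp1c-ps were not tested: Nlrp1a had 1 and 0 counts in Il1f5 WT, 0 and 0 in those labelled KO, 9 and 10 in Il1f9 WT and 0 and 8 in Il1f9 KO. Nlrp1c-ps had 0 counts in all 4 Il1f5 line tumours, 2 and 2 in Il1f9 WT and 0 and 1 in KO.

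Among the rest, Slfn4 was lower in both tumours labelled Il1f5 KO (107 and 168 CPM) than in WT (258 and 269 CPM), at −0.95 ± 0.62 (adjusted p = 0.414). With the 2 groups of this line fitted alone, its adjusted p was 0.04997, just under the threshold. Slfn2 at 52.5 and 40.2 CPM and Slfn10-ps at 1.05 and 0.787 CPM were both above WT, at 30.0 and 29.3 CPM and at 0.529 and 0.701 CPM, with log2 fold changes of 0.63 ± 0.84 (adjusted p = 0.701) and 0.56 ± 0.79 (0.706). So in this line 2 members lay below WT without overlap (Nlrp1b and Slfn4) and 2 above, while 29.9% of all genes lay below and 33.8% above. Slfn9 and Slfn1 were close to WT, at 0.02 ± 0.29 and 0.04 ± 0.47.

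In the Il1f9 line the 2 KO tumours differed widely. Slfn5 stood at 13.4 and 134 CPM in KO against 25.6 and 9.45 CPM in WT, Slfn2 at 61.7 and 266 CPM against 207 and 64.8 CPM, and Slfn4 at 282 and 909 CPM against 542 and 255 CPM. For each of these, replicate 2 was the highest of the 4 tumours. The log2 fold change of Slfn5 was 2.03 ± 1.12 (adjusted p = 0.678), and without KO replicate 2 it was −0.39. That of Slfn2 went from 0.23 to −1.14 and that of Slfn4 from 0.54 to −0.50 without this library. Of the lost genes, Nlrp1b went from −0.63 to −1.76 (adjusted p = 0.248) and Slfn8 from −0.33 to −1.32 (0.351). The summed level of interferon-stimulated genes moved with it, at 888 CPM in KO replicate 1 and 3465 CPM in replicate 2, against 535 to 1222 CPM in WT. Its part in the result was not tested.

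A test of whether the KO effect differed between the lines in tumours called none of the 8 members either, against 0.0784% of all genes, with none at an unadjusted p under 0.05 and none by the DESeq2 Wald test. The difference was 0.26 ± 0.88 for Nlrp1b (adjusted p = 0.899), −0.75 ± 0.92 for Slfn8 (0.692), 1.49 ± 0.88 for Slfn4 (0.428) and 1.84 ± 1.55 for Slfn5 (0.581). Without Il1f9 KO replicate 2 these became −0.88, −1.75, 0.44 and −0.59.

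Several members differed between tumours of the lines in both genotypes. Among WT tumours 4 of the 8 members tested were higher in the Il1f9 line, Slfn8, Slfn10-ps, Slfn1 and Nlrp1b, against 16.8% of all genes, and none was lower. Slfn8 was 12.3-fold higher (log2 fold change 3.63 ± 0.67, adjusted p = 0.00553), and Slfn10-ps 8.16-fold, at 6.38 and 3.61 CPM against 0.529 and 0.701 CPM (3.03 ± 0.76, 0.0201). Slfn1 was 5.72-fold higher, at 46.7 and 16.2 CPM against 6.06 and 5.11 CPM (2.52 ± 0.48, 0.00846). Nlrp1b was 3.81-fold higher (1.93 ± 0.62, 0.0453). Every WT tumour of the Il1f9 line exceeded every WT tumour of the Il1f5 line for 8 of the 10 genes, all but Slfn5 and Slfn4. Among the 17859 genes tested, which leave out Nlrp1a and Nlrp1c-ps, the share was 37.5%. Nlrp1a summed to 19 counts against 1, a ratio of 22.9 with a counting interval of 3.65 to 953.

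The KO-labelled tumours share no library with the WT ones, but the spread was estimated over all 8 tumours, so the tests are not independent. They gave 3 members higher in the Il1f9 line, against 12.2% of all genes: Slfn8 (7.34-fold, 2.88 ± 0.64, adjusted p = 0.0146), Nlrp1b (4.57-fold, 2.19 ± 0.66, 0.0431) and Slfn1 (3.52-fold, 1.81 ± 0.47, 0.0308). Slfn1 stood at 15.8 and 24.8 CPM against 5.80 and 5.77 CPM. Slfn4 (2.11 ± 0.64, 0.0675), Slfn10-ps (1.77 ± 0.73, 0.116) and Slfn2 (1.82 ± 0.85, 0.193) had positive values that did not pass. Without Il1f9 KO replicate 2 they fell to 1.07, 0.019 and 0.45. Nlrp1b, Slfn8, Slfn2, Slfn1 and Slfn4 lay above without overlap, against 29.7% of all genes. The median of the 8 was 2.08 in WT and 1.82 in KO-labelled tumours, beside 0.02 and −0.01 over all genes. The tumour tables of the lines were deposited separately, so line and table cannot be told apart.

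**Figure D4:**
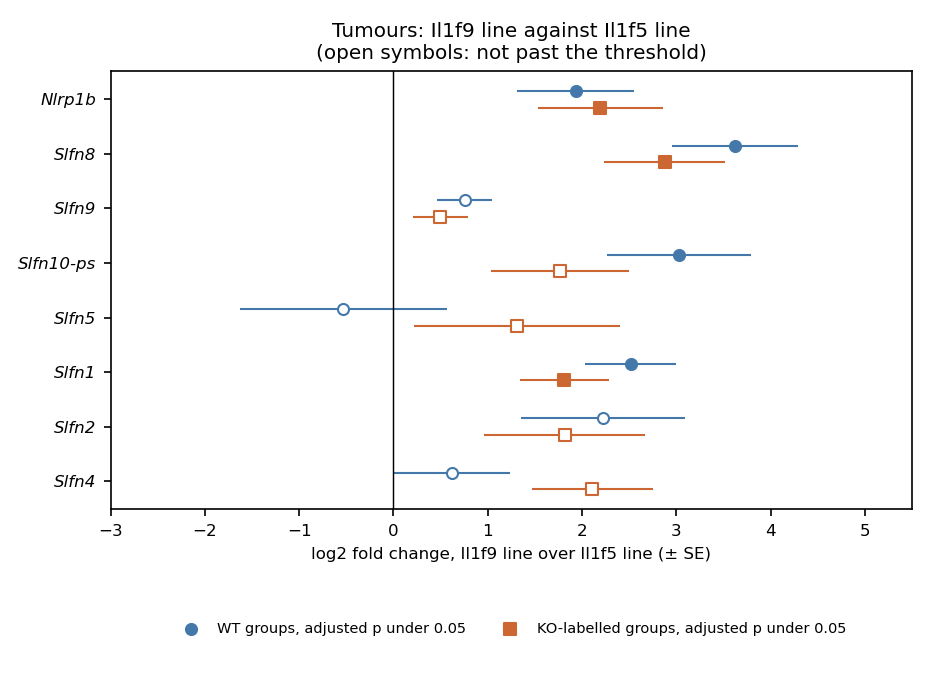
Log2 fold change of the Il1f9 line over the Il1f5 line in tumours with its SE, for WT groups (circles) and KO-labelled groups (squares), with filled symbols for an adjusted p under 0.05. Slfn8, Nlrp1b and Slfn1 are filled in both genotypes and Slfn10-ps in WT alone, and Slfn5 has opposite signs in the 2 genotypes.

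These line differences depended on single tumours. In WT, Slfn8 passed with any 1 library left out (highest adjusted p = 0.0430), but the count of 4 fell to 1 without Il1f5 WT replicate 1 or 2 and to 2 without Il1f9 WT replicate 1. Nlrp1b ended at 0.220 without Il1f5 WT replicate 2, 0.157 without Il1f9 WT replicate 2, 0.108 without Il1f9 WT replicate 1 and 0.0746 without Il1f5 WT replicate 1, and at 0.0858 and 0.0709 without replicate 1 or 2 labelled Il1f5 KO. Slfn10-ps ended at 0.125 and 0.0895 without Il1f5 WT replicate 1 or 2 and at 0.105 without Il1f9 WT replicate 1. Slfn1 ended at 0.0614 and 0.0649 without Il1f5 WT replicate 1 or 2. Among KO-labelled tumours the count of 3 fell to 0 without either replicate labelled Il1f5 KO or without Il1f9 KO replicate 2, and rose to 6 without Il1f9 KO replicate 1. Without that replicate 2, Nlrp1b was at 1.07 (0.256), Slfn1 at 1.49 (0.137) and Slfn8 at 1.89 (0.0536).

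Myeloid, general leukocyte and colon epithelium markers moved with the tumour lines as well. For comparison, 16.8% of all genes were called higher in the Il1f9 line in WT tumours and 12.2% in KO-labelled ones. In WT tumours 5 of 6 neutrophil markers were called higher in the Il1f9 line, with sums of 1765 to 3948 CPM against 276 to 283 CPM, as were 3 of 8 macrophage markers (1595 to 2198 against 449 to 764 CPM) and 3 of 4 general leukocyte markers (298 to 466 against 146 to 181 CPM). In KO-labelled tumours the counts were 4, 3 and 1, with neutrophil sums of 984 to 1693 against 346 to 415 CPM and macrophage sums of 1277 to 1604 against 715 to 809 CPM. Of 6 colon epithelium markers 3 were higher in WT tumours of the Il1f9 line (sums of 13258 to 15494 against 7113 to 8529 CPM) and 2 in KO-labelled ones (16702 to 17714 against 8047 to 8351 CPM). No T cell, B cell or dendritic cell marker was called between the lines. Inflammasome adaptor and effector genes were higher in the Il1f9 line too, 4 of 8 in WT tumours, with Il1b at 3.40 ± 0.46 (adjusted p = 0.00360), and 6 of 8 in KO-labelled ones, with Gsdmd, gasdermin D, at 1.11 ± 0.16 (0.00385). Other sensors went both ways in WT tumours, with 3 higher, such as Mefv (2.32 ± 0.35, 0.00262), and 3 lower, such as Naip6 (−1.88 ± 0.24, 0.00156) and Nlrp6 (−2.33 ± 0.38, 0.00454). In KO-labelled tumours 5 were higher and 1, Nlrp6, was lower (−2.49 ± 0.38, 0.00505). The part of these cells in the members' difference was not tested.

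Ordered by mean level, Nlrp1b ran from Il1f9 WT colitis (17.4 ± 2.50 CPM, SD, n = 2) and Il1f5 WT colitis (15.5 ± 1.52, n = 3), which overlapped, to Il1f9 WT tumours (3.51 ± 0.712) and Il1f9 KO tumours (2.31 ± 1.82), which overlapped too. The libraries labelled Il1f5 KO (1.35 ± 0.240 in colitis, n = 3) and the Il1f5 WT tumours (0.924 ± 0.528) came next, and the tumours labelled Il1f5 KO (0.500 ± 0.0349) and Il1f9 KO colitis (0.381 ± 0.0469) were last. The tumours of the Il1f5 line thus sat at the level of the colitis libraries that had lost the gene. Slfn8 had nearly the same order, with Il1f5 WT colitis (13.2 ± 1.81) above Il1f9 WT colitis (9.34 ± 1.24), Il1f9 line tumours at 4.53 ± 1.31 in WT and 3.69 ± 2.66 in KO, and the last 4 groups between 0.678 ± 0.389 and 0.365 ± 0.232 CPM.

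**Figure D5:**
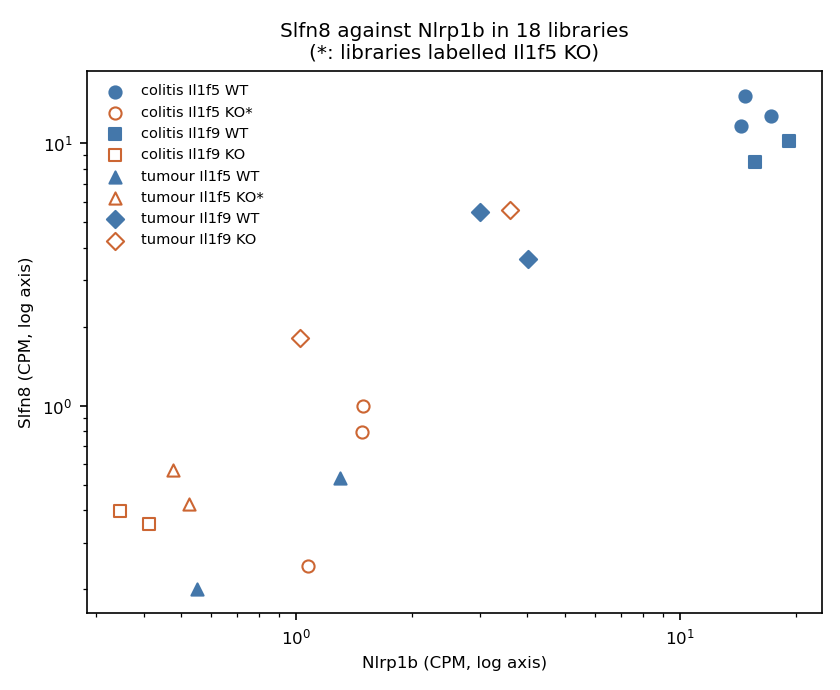
Slfn8 against Nlrp1b in CPM (both axes logarithmic) in the 18 libraries, with 1 symbol per group. The 5 colitis WT libraries lie together at the upper right, Il1f9 line tumours in the middle and KO-labelled colitis libraries with Il1f5 line tumours at the lower left.

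Nlrp1b and Slfn8, although 11666.1 kb and more apart, had the closest pattern to each other of the genes compared. As a description, Pearson's r of log2 CPM over the 18 libraries was 0.939. The libraries fall into the separate groups seen in the plot of Slfn8 against Nlrp1b, and those groups set most of it. Both genes were chosen for their fall in the 10 colitis libraries, which are among the 18. Part of this likeness therefore follows from the choice. Among the 5 genes outside the family nearest to Nlrp1b, of 15269 compared, were the hexokinase Hk2 (0.922), the orphan receptor Gpr141 (0.905), Ly6i (0.882) and BC025446 (0.864). Those nearest to Slfn8 were Hk2 (0.912), Ly6i (0.905), the IL-10 receptor chain Il10ra (0.903), Gpr141 (0.894) and the necroptosis kinase Ripk3 (0.880). Of the members, Slfn9 followed Slfn8 at 0.854 and Nlrp1b at 0.775, whereas Slfn5 was at 0.368 and 0.394 and Slfn2 at 0.568 and 0.372.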

How the data were processed

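The authors' 3 deposited tables hold counts per gene, whole numbers with no scaling, for 18 libraries, and the authors' FPKM values. Per the submitters' processing notes, Trim Galore 0.6.4, HISAT2 2.0.5 and featureCounts 2.0.0 were used; their settings and the genome build are not given in the sources used here. Gene coordinates equalled GENCODE M21 (GRCm38). Gene symbols came from a tumour table, since dates replaced some in the colitis table.

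The members and all lists were chosen with earlier results of these data known. All 10 members, other Schlafen genes, neighbours called alike in both colitis comparisons, up to 3 genes per list with the smallest p and the 5 genes most like Nlrp1b or Slfn8 were named, except 1 that is not reported here. Tests used edgeR 4.0.16 in R 4.3.3 (TMM, filterByExpr, robust quasi-likelihood F test on group means) over the 10 colitis or 8 tumour libraries, which were labelled as separate mice of a group and carry no batch label. A call is a Benjamini-Hochberg adjusted p under 0.05 over all genes, and "lost" means called and a log2 fold change of −2 or lower in both colitis comparisons. CPM used TMM over 18 libraries, and likeness a prior count of 2. FPKM served for levels between genes. The scripts were tested on simulated data. Promoter windows are RefSeq's, and 8 of the 10 genes had one. Alternatives were DESeq2 1.42.0 (size factors, Wald test), no low-count filter, an added minimum log2 fold change of 1 in either direction, only the groups compared, the replicate number as a block, each library left out, and, added after seeing the data, library totals without TMM. A group left with 1 library was assumed to vary like the other groups. Python 3.11.15, numpy 2.4.6, pandas 2.3.3, scipy 1.17.1 and matplotlib 3.10.9 did the rest.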

Additional observations from a re-analysis of the deposited data

Results flagged for a closer look

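Slfn10-ps lay on opposite sides of WT in the tissues of the Il1f5 line. Every colitis library labelled Il1f5 KO lay below every WT library, with a log2 fold change of −2.42, and both tumours labelled Il1f5 KO lay above both WT tumours, with a log2 fold change of 0.56, which did not pass the test (adjusted p = 0.706). In those tumours 33.8% of all genes lay above WT in this way. The difference between the tissues was not tested. The colitis value is one that chose the genes, and 19.7% of the 50-base stretches of this pseudogene are shared with other Schlafen members.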

How the results depend on the processing

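Depth limits Nlrp1a and Nlrp1c-ps, which had counts in 10 and 8 of 18 libraries. In colitis 4 to 6 of 10 members were called in the Il1f5 line and 4 to 7 in the Il1f9 line under the alternatives that keep all libraries, and 5 to 8 and 4 to 7 with 1 library left out. Without the low-count filter the tumour counts moved to 2 (Il1f5 KO against WT: Slfn2 and Slfn4), 1 (Il1f9 KO against WT: Slfn5), 2 (difference of the KO effects: Slfn4 and Slfn5), 8 (lines in WT) and 7 (lines in KO-labelled tumours), and with only the groups compared the Il1f5 count was 1. Counts for the lines ran from 1 to 5 in WT and from 0 to 6 in KO-labelled tumours with 1 library left out, and stayed at 0 for KO against WT and for the difference of the KO effects. Over all genes, the 5 calls in Il1f5 tumours became 1171 with the DESeq2 Wald test, 1943 without the filter and 1026 with only the groups compared, and the 3 in Il1f9 tumours 154, 791 and 0; the cause was not tested.

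Signs changed only for values near 0 or with a tumour left out. Slfn4 in Il1f9 colitis went to −0.012 with library totals. In Il1f5 tumours Slfn9 went to −0.012 with DESeq2 size factors, −0.15 with library totals, −0.0038 with the DESeq2 Wald test and −0.017 with only the groups compared, and Slfn1 to −0.13 with library totals, which move the median of all genes there to −0.16. Leaving out libraries gave, in Il1f9 colitis, −0.42 to 0.074 for Slfn5 and −0.43 to 0.59 for Slfn4. In Il1f5 tumours it gave −0.086 to 0.41 (Slfn5), −0.18 to 0.17 (Slfn9), −0.086 to 1.27 (Slfn8) and −0.061 to 0.17 (Slfn1). In Il1f9 tumours it gave −0.39 to 2.93 (Slfn5), −0.80 to 0.15 (Slfn9), −1.32 to 0.25 (Slfn8), −2.45 to 0.060 (Slfn10-ps), −1.14 to 1.31 (Slfn2), −1.24 to 0.31 (Slfn1) and −0.50 to 1.20 (Slfn4). The difference of the KO effects ran from −0.88 to 0.87 (Nlrp1b), −0.59 to 2.72 (Slfn5), −0.83 to 0.12 (Slfn9), −1.78 to 0.67 (Slfn2) and −1.30 to 0.25 (Slfn1). The line difference ran from −1.42 to 0.045 (Slfn5) and −0.025 to 1.09 (Slfn4) in WT and from −1.10 to 2.16 (Slfn5) and −0.057 to 0.89 (Slfn9) in KO-labelled tumours; the cause was not tested.

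Replicate numbers did not pair the libraries: same-numbered KO and WT libraries had correlations of −0.00217, −0.116 and −0.143 (colitis Il1f5), −0.0882 (colitis Il1f9), −0.00221 (tumour Il1f5) and −0.117 (tumour Il1f9). With the replicate block the counts of members called were 6 and 4 in colitis, 0 and 0 in tumours by genotype, 0 for the difference, and 3 and 2 for the lines in WT and KO-labelled tumours. Nlrp1b did not pass for the lines under the block (adjusted p = 0.0690 and 0.0678), with library totals (0.0924 and 0.0614) or, in WT, with DESeq2 size factors (0.0524).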
